A study of Mus musculus with 16 samples.

Results

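Brown fat of mouse pups at postnatal day 10 (P10) was compared with that at postnatal day 4 (P4), within the suckling period. The comparison rests on 7 of the 16 arrays of the series, 3 labelled as P10 and 4 as P4, and was read across all measured genes. Every sample was the whole brown adipose tissue (BAT) of C57BL6/N mice, with no transgene and no treatment named in the labels. The other 9 arrays, 3 each from embryonic day 18 (E18), 4 weeks (4W) and 8 weeks (8W), entered the fit to estimate the spread between arrays and are given only as reference. The labels name neither the sex nor the litter of the pups, nor whether the arrays of an age came from separate animals, so the p-values measure only the spread between these arrays, which may be technical. Of 16436 genes measured, 597 on the X or Y chromosome were left out of every count. The remaining 15839 genes include 139 of 4 lists of skeletal muscle transcripts, which are described apart.

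BAT burns fat and glucose to make heat: noradrenaline from sympathetic nerves raises cyclic AMP in the brown adipocyte, fatty acids are released from its lipid droplets, and uncoupling protein 1 (UCP1) lets protons back into the mitochondrion without making ATP. Newborn mice depend on this heat, and feed on fat-rich milk. The tissue taken whole also holds capillaries, nerves, fibroblasts, immune cells and may hold adjoining muscle. In such bulk RNA, fewer cells of a type and less RNA per cell cannot be told apart.

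A level below is the background-subtracted signal of a gene's probe as a multiple of the 75th percentile of its array, given in replicate order. Each probe has its own brightness, so levels are compared between ages for 1 gene and not between genes. A summed level of a list is led by its brightest probes and is likewise compared between ages only. Differences are of log2 levels, P10 minus P4, ± the standard error (SE) of limma's fit over all 16 arrays (n = 4 and 3). A gene rose or fell if its Benjamini-Hochberg adjusted p was under 0.05. Where no array of the dimmer age read a probe well above background, only a bound is given ("at least N-fold"). For it, a probe on an array of the dimmer age counts at no less than the dimmest reading that array made well above background, and the mean of the brighter age is set against the mean of these values.

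The 75th percentile of the signal was 351 to 753 on the P4 arrays, lowest on P4 replicate 3, and 571 to 749.6 on the P10 arrays. Probes well above background made up 51.2% to 58.4% of all probes at P4 and 59.3% to 71.9% at P10. Replicate 1 of each age was hybridised on another slide than the other arrays of its age. P10 replicates 2 and 3 differed by less than the copies of 1 probe on an array (a spread of 0.058 against 0.070 on the log2 scale over 221 probes in 10 copies), and so, within 1.1 times, did P4 replicates 1 and 2 (0.083 against 0.076) and 2 and 4 (0.069 against 0.065). Every pair of arrays within E18, within 4W and within 8W was also this close, such as E18 replicates 2 and 3 (0.052 against 0.062). The SEs and p-values thus rest in part on arrays that differ no more than copies of a probe. Counts are therefore also given with such arrays averaged, which leaves n = 2 at P4 and at P10, and 1 array at each of E18, 4W and 8W. The Y-linked transcript Ddx3y read 5.56 to 5.78 at P4 and was well above background on no P10 array. Eif2s3y, also on the Y chromosome, read 5.23 to 6.04 at P4 and 0.0227 to 0.0382 at P10, well above background on 1 P10 array. The dimmer Uty did not pass (adjusted p = 0.33 in limma's fit). Its P10 replicate 3 read 0.542, above the P4 arrays at 0.0788 to 0.123, and the other P10 arrays read 0.00973 and 0.0123. Xist, the X-inactivation RNA, was well above background on no P4 array and read 2.04 to 2.14 at P10. Mean Xist was 0.0827 at E18, 0.0147 at 4W and 0.0197 at 8W, and mean Ddx3y was 4.55, 4.86 and 5.16. P10 was thus the only age with Xist high and Ddx3y low. Sex and age cannot be told apart in this comparison for any gene that differs between the sexes. The same holds where P10 is set beside E18, 4W or 8W.

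Stretches of promoters are shown for the interferon response and for cholesterol synthesis, 2 lists whose members moved together. The sequences are RefSeq's for GRCm38.p6, each the 120 bases before an annotated gene start, in the direction of the gene. In the first set, capitals mark matches of either strand to TTTCNNTTTC (GAAANNGAAA on the other strand), the core of the interferon-stimulated response element, with overlapping matches joined.
Gbp3 (chr3:142559924-142560043, plus strand): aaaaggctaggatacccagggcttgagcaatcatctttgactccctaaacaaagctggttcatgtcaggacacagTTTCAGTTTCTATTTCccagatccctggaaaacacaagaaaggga.
Ifit1 (chr19:34640769-34640888, plus strand): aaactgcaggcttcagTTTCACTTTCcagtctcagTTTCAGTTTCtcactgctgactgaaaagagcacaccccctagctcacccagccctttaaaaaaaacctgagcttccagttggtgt.
Isg15 (chr4:156200819-156200938, minus strand): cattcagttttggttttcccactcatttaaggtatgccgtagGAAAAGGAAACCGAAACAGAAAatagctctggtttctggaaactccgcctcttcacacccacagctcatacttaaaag.
Irgm1 (chr11:48871421-48871540, minus strand): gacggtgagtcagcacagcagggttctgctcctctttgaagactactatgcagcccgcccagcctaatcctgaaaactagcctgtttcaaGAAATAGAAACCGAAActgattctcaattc.
Igtp (chr11:58199436-58199555, plus strand): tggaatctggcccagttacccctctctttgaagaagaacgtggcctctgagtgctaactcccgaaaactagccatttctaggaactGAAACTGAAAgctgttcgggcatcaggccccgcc.

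Isg15, Irgm1 and Igtp, and Idi1 in the second set, were chosen for display after their values were seen. Isg15 holds 3 overlapping matches that begin 78, 72 and 66 bases before the start, Ifit1 holds 2 separate ones, and Igtp holds 1. Within 250 bases before the start, 17 of the 35 interferon response genes with a promoter in the RefSeq table held a match (48.6%), against 936 of 27025 genes of the table (3.46%) and 425 of 12540 measured genes matched to it (3.39%). Among genes outside the muscle lists that rose at least 2-fold, 53 of 753 held one (7.04%), and among those that fell at least 2-fold, 16 of 436 (3.67%). Oas3 and Tgtp1, genes of the interferon list that did not pass the test, also held a match and are not printed. A match also stood in 6 of 45 promoters of cytosolic ribosomal proteins (13.3%), a list that fell. In MHC class I, a list that mostly rose, 2 of 14 held one (14.3%). The motif was looked for with its matches in these genes known, and a match is a description of the letters only.

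In the second set, capitals mark CCAAT or ATTGG, the CCAAT box on either strand, in genes of cholesterol synthesis.
Cyp51 (chr5:4104698-4104817, minus strand): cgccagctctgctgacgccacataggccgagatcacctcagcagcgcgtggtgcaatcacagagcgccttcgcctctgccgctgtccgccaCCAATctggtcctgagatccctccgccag.
Hsd17b7 (chr1:169969206-169969325, minus strand): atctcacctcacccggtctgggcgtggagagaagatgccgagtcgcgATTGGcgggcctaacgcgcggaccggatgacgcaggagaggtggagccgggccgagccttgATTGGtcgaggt.
Idi1 (chr13:8885486-8885605, plus strand): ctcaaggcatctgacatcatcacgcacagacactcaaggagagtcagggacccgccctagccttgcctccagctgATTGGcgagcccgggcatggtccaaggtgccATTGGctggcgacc.

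All 13 cholesterol synthesis genes with a promoter in the table held CCAAT or ATTGG within 250 bases before the start, against 37.5% of all genes of the table and 39.0% of the measured genes. It was also common in a list that mostly fell, mitosis (31 of 45, 68.9%), and in lists that mostly rose, MHC class I (10 of 14, 71.4%) and MHC class II (7 of 9, 77.8%). Genes of the cholesterol list that did not pass the test, and a gene of it that rose, also held these letters and are not printed. These letters are short and common, and a gene can also use a start other than the annotated one.

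Across the 15700 genes outside the muscle lists, 8511 (54.2%) passed the test, 4146 upward (26.4%) and 4365 downward (27.8%), and the median log2 difference was -0.02. At least 2-fold, 969 genes rose (6.17%) and 576 fell (3.67%). For 8391 genes (53.4%) the ranges of both ages were apart, with P10 higher for 26% and lower for 27.4% of the 15700. With like arrays averaged 1607 genes rose and 1238 fell; 2790 of the 8511 calls were then made in the same direction and 0 in the other. Within slide 1 alone 4179 rose and 4664 fell, within slide 2 alone 2900 and 2194, and with the slide as a block 4367 and 4573. Counts of members that rose or fell in a list are to be read against these shares, since a list with like shares is at the background.

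**Figure D1:**
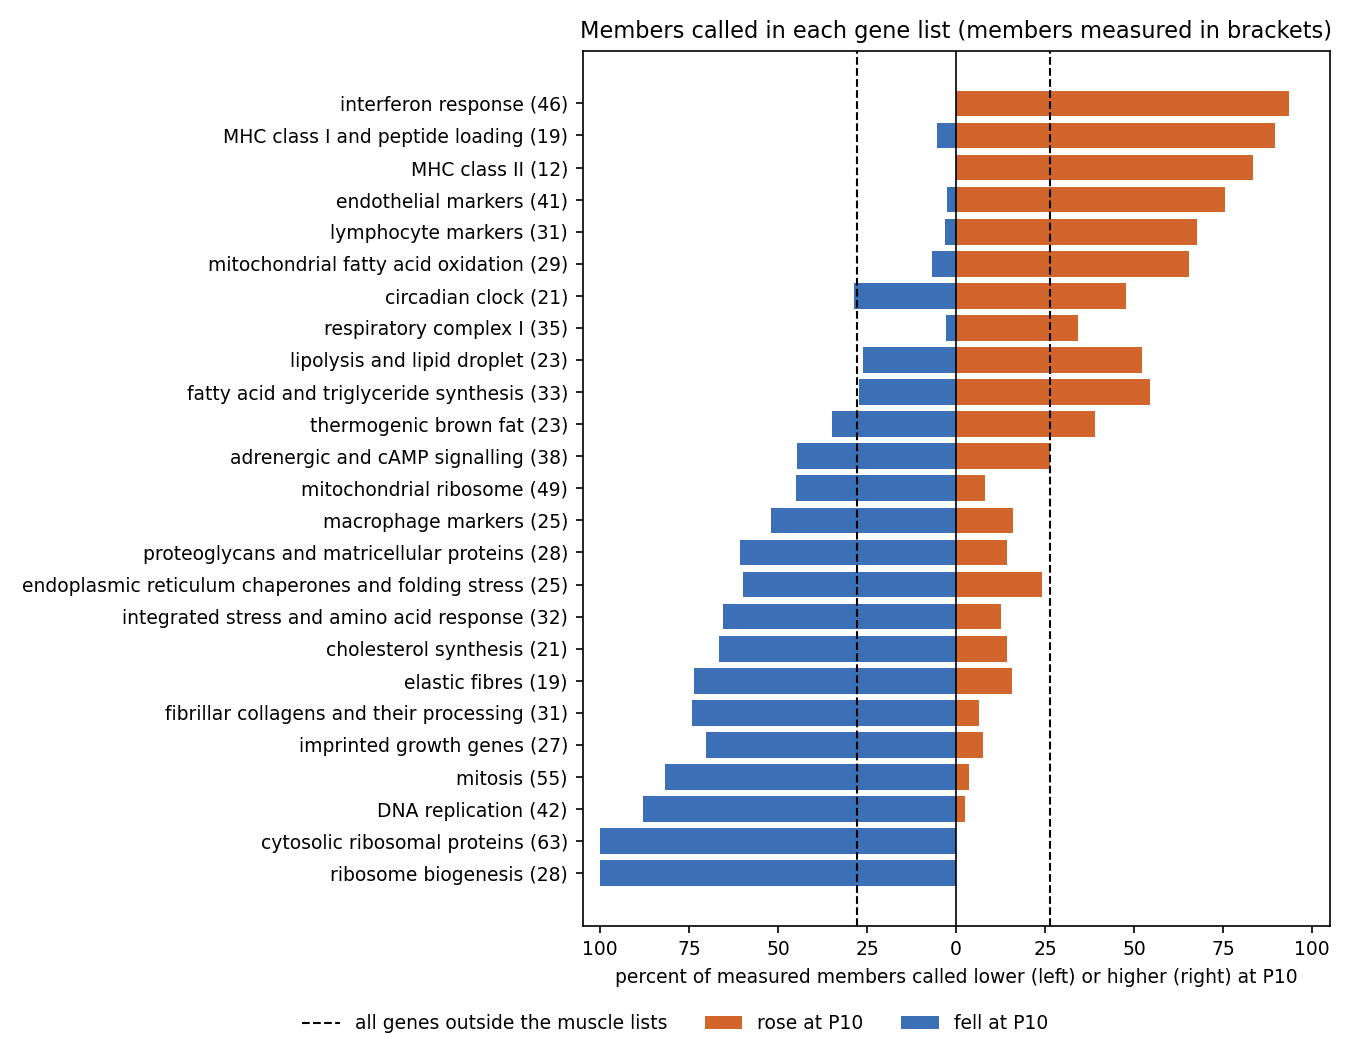
Percent of the measured members of 25 gene lists called lower (left) or higher (right) at P10 than at P4; dashed lines mark the shares over all genes outside the muscle lists, 27.8% lower and 26.4% higher. All 28 measured ribosome biogenesis genes lie on the left and 43 of 46 interferon response genes on the right, while the thermogenic list divides between both.

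Genes of thermogenesis moved both ways: in the list of thermogenic brown fat genes 9 of 23 measured members rose and 8 fell (4 and 4 with like arrays averaged), with a median log2 difference of 0.09. Without the 3 members that the muscle lists also hold, 7 of 20 rose and 8 fell, with a median of -0.04, and with like arrays averaged the median over all 23 was likewise -0.04. Ucp1, the gene of the uncoupling protein that defines the labelled tissue, was well above background on all 7 arrays. Its level was 598, 742, 1052 and 745 at P4 and 586, 737 and 749.9 at P10, and these values overlap. The log2 difference of Ucp1 was -0.16 ± 0.15, with an adjusted p of 0.41 in limma's fit. Ebf2, a transcription factor of the brown fat lineage, read 12.7, 13.0, 14.7 and 12.8 at P4 and 8.24, 8.14 and 7.98 at P10, a fall of 1.64-fold with no overlap.

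Single transcripts that turn on with thyroid hormone or cyclic AMP went different ways. Ppargc1a, the coactivator of mitochondrial genes, read 75.6, 74.0, 79.0 and 76.0 at P4 and 11.8, 10.8 and 11.4 at P10. Dio2, the enzyme that makes active thyroid hormone inside the brown adipocyte, read 16.8, 16.7, 14.7 and 16.3 at P4 and 2.14, 2.03 and 2.07 at P10; every P10 array was far below every P4 array. Among thyroid hormone genes 5 of 15 measured members rose and 4 fell (4 and 1 with like arrays averaged), with a median log2 difference of -0.06. These shares, 33.3% and 26.7%, are near the 26.4% and 27.8% over all genes outside the muscle lists. Thrsp, a lipogenic factor named for its response to thyroid hormone, read 90.7, 94.9, 100.6 and 97.8 at P4 and 236, 229.5 and 235 at P10 and rose 2.43-fold, and the hormone-responsive transcription factor Klf9 (4.22, 3.75, 3.70 and 3.85 at P4 and 10.2, 9.94 and 9.75 at P10) rose 2.57-fold. Hr, the hairless corepressor that thyroid hormone induces in brain, rose by 0.91 ± 0.09 on the log2 scale. The mean level of Dio2 was 1.74 at E18, 3.53 at 4W and 0.258 at 8W.

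In the adrenergic and cyclic AMP list 10 of 38 measured members rose and 17 fell (3 and 9 with like arrays averaged), with a median log2 difference of -0.12, and the changes at single steps were large in both directions. At the receptor step, Adrb3, the β3-adrenergic receptor of adipocytes, read 12.1, 11.2, 13.5 and 11.6 at P4 and 10.0, 7.62 and 7.59 at P10 and fell (log2 difference -0.53 ± 0.09), while Adra1a, an α1 receptor that raises calcium, read 0.353, 0.317, 0.314 and 0.306 at P4 and 0.533, 0.493 and 0.511 at P10 and rose. The call of Adrb3 was lost within slide 2 (adjusted p = 0.13 in limma's fit) and with like arrays averaged (adjusted p = 0.15). The adenylyl cyclases, which make cyclic AMP, moved in opposite directions: Adcy3 read 1.44, 1.32, 1.23 and 1.38 at P4 and 0.373, 0.319 and 0.297 at P10, whereas Adcy9 read 4.66, 4.21, 4.51 and 4.61 at P4 and 12.2, 10.9 and 10.8 at P10. Adcy5 read 1.25, 1.45, 1.71 and 1.36 at P4 and 0.217, 0.219 and 0.446 at P10. Adcy3 thus fell 4.08-fold and Adcy5 5.18-fold, whereas Adcy9 rose 2.51-fold, each without overlap between the ages.

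Rgs2, which shortens signalling through G proteins, had the largest rise of the list. Its level was 15.8, 14.8, 15.8 and 14.9 at P4 and 109, 114 and 116 at P10, a 7.36-fold rise (log2 difference 2.88 ± 0.05), and the P10 arrays spanned only 109 to 116. Immediate early genes, which many signals including cyclic AMP turn on within minutes, moved both ways: 13 of 34 measured members rose and 10 fell (5 and 7 with like arrays averaged), with a median log2 difference of 0.01. Jun, a subunit of the AP-1 factor, read 10.1, 10.1, 10.9 and 10.3 at P4 and 26.4, 25.8 and 25.1 at P10 and rose 2.49-fold. The zinc finger gene Egr2 read 0.180, 0.189, 0.206 and 0.153 at P4 and 0.559, 0.449 and 0.464 at P10 and rose 2.70-fold. Others fell. Atf3, a stress transcription factor, read 3.40, 3.02, 3.26 and 3.11 at P4 and 0.631, 0.596 and 0.567 at P10. Nr4a2, a nuclear receptor, read 3.84, 3.45, 3.48 and 3.56 at P4 and 1.26, 1.32 and 1.43 at P10. Nr4a3, of the same nuclear receptor family as Nr4a2, was well above background on all P4 arrays and on no P10 array, and was at least 3.21-fold lower. None of these groups of arrays overlapped. A cyclic AMP response element, TGACGTCA, stood in 1 of 29 promoters of the list (3.45%) and in 2.66% of those of measured genes.

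**Figure D2:**
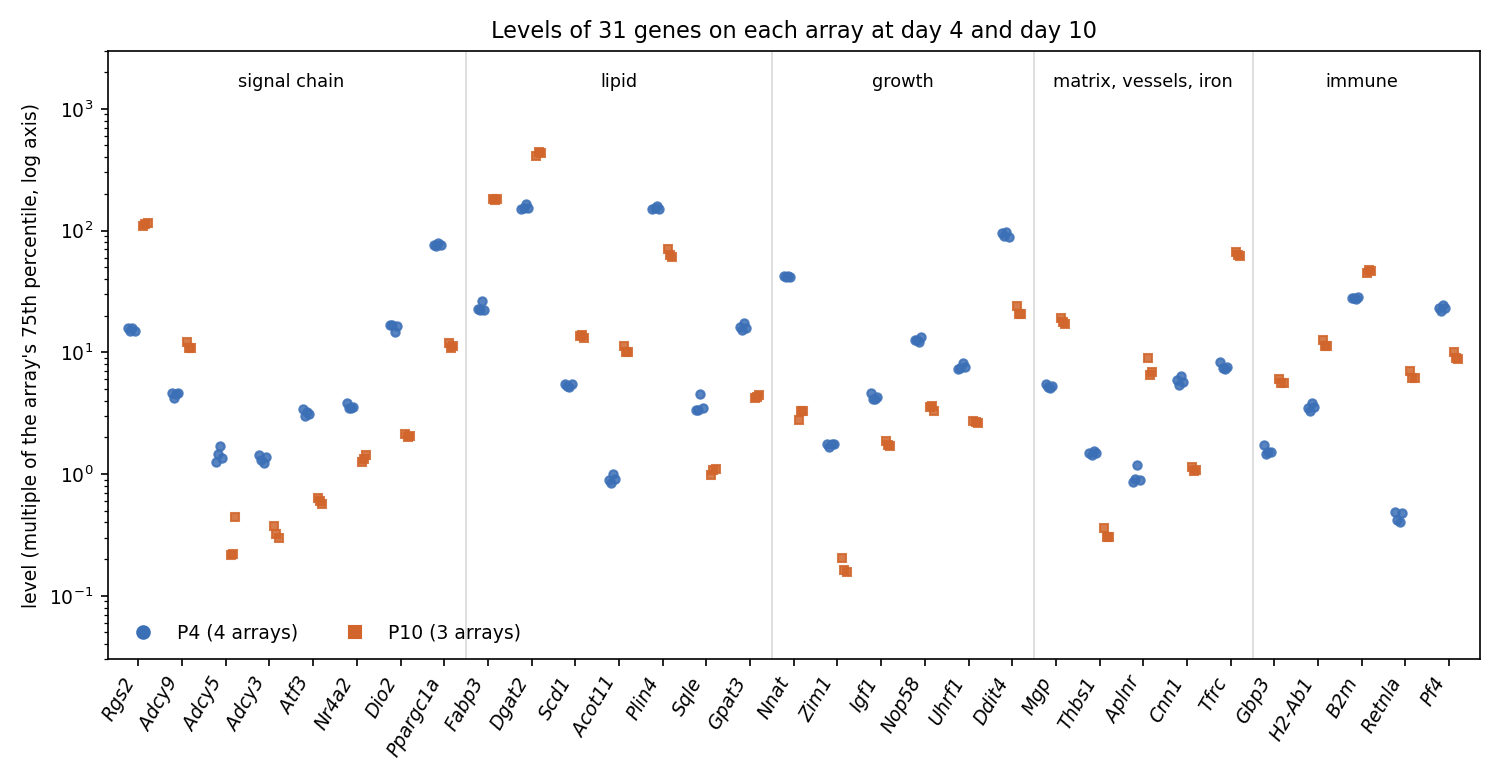
Level of 31 genes on each of the 4 P4 arrays (circles) and 3 P10 arrays (squares), as a multiple of the array's 75th percentile on a log axis; levels of different genes are not comparable. Arrays of an age lie close together and the ages do not overlap for the genes shown, with Rgs2, Adcy9 and Tfrc higher and Adcy5, Dio2 and Nnat lower at P10.

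Genes of fat handling rose more often than the background, with clear exceptions. In the list of fatty acid uptake and lipoprotein lipolysis 12 of 23 measured members rose and 5 fell (5 and 4 with like arrays averaged), with a median log2 difference of 0.17. Fabp3, a fatty acid carrier of heart, muscle and brown fat, read 22.8, 22.4, 26.6 and 22.3 at P4 and 181, 179 and 181 at P10. It rose 7.69-fold. The muscle lists also hold Fabp3, whose means were 385 at 4W and 318 at 8W; the part of muscle RNA in its rise was not tested. Gpihbp1, which carries lipoprotein lipase to the capillary wall, read 50.02, 47.8, 47.8 and 47.3 at P4 and 83.0, 82.4 and 81.8 at P10 and rose 1.71-fold. Lpl, the lipase itself, differed by 0.25 ± 0.07, a call lost with scaling to the median (adjusted p = 0.099 in limma's fit), within slide 2 (0.22) and with like arrays averaged (0.35). Angptl8, an inhibitor of that lipase system, read 10.0, 9.90, 12.2 and 10.1 at P4 and 5.99, 6.004 and 5.89 at P10 and fell, as did the carrier Fabp5 (-0.69 ± 0.06).

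Of the fatty acid and triglyceride synthesis genes, 18 of 33 measured members rose and 9 fell (12 and 3 with like arrays averaged), with a median log2 difference of 0.37, or 0.17 under normexp background correction. The enzymes of the last step of triglyceride synthesis parted: Dgat2 read 149, 155, 165 and 152 at P4 and 411, 442 and 436 at P10 and rose 2.77-fold, while Dgat1 read 51.2, 47.9, 44.5 and 44.9 at P4 and 23.4, 19.7 and 19.5 at P10 and fell 2.27-fold. Gpat3, an acyltransferase of the first step, read 16.02, 15.2, 17.5 and 15.9 at P4 and 4.21, 4.27 and 4.44 at P10 and fell 3.75-fold. Acacb, the acetyl-CoA carboxylase at the mitochondrion, read 11.46, 11.2, 12.6 and 10.8 at P4 and 38.0, 32.8 and 33.4 at P10; it rose 3.01-fold, the cytosolic form Acaca 1.62-fold and the desaturase Scd1 2.51-fold. All 3 stood far higher still at 4W and 8W, where Scd1 averaged 273 and 464 against 5.45, 5.26, 5.22 and 5.50 at P4 and 13.6, 13.7 and 13.0 at P10. At E18 the means of Acacb, Acaca and Scd1 were 42.7, 47.9 and 46.8, above their P10 means of 34.6, 19.9 and 13.4. All 3 were thus lower at P4 than at either E18 or P10.

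In the lipolysis and lipid droplet list 12 of 23 measured members rose and 6 fell (7 and 2 with like arrays averaged), with a median log2 difference of 0.25. The carboxylesterase Ces1d read 9.74, 8.496, 7.70 and 8.89 at P4 and 40.9, 43.5 and 42.2 at P10 and rose 4.86-fold. Ces1f rose 6.08-fold; these genes lie in a cluster of near-identical copies, which their probes may share. Of droplet proteins that fell, Plin4 read 150.3, 154, 158 and 151 at P4 and 71.2, 62.8 and 60.6 at P10 (2.37-fold), and Fitm2, which buds droplets from the endoplasmic reticulum, read 3.39, 3.04, 3.57 and 3.21 at P4 and 0.935, 0.819 and 0.753 at P10 (3.96-fold). Pnpla2, the lipase that starts lipolysis, rose by 0.54 ± 0.06 and Plin1, which guards the droplet, fell (log2 difference -0.40 ± 0.06), and neither was called with like arrays averaged (adjusted p = 0.056 and 0.11 in limma's fit).

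In the list of mitochondrial fatty acid oxidation 19 of 29 measured members rose and 2 fell (3 and 2 with like arrays averaged), with a median log2 difference of 0.25, although scaling to the median left 6 rises. Acot11, a thioesterase known as brown fat inducible, read 0.894, 0.848, 1.00 and 0.918 at P4 and 11.4, 9.97 and 10.1 at P10, a rise of 11.46-fold toward its mean of 69.0 at 8W. Pank1, which makes coenzyme A, read 1.96, 1.90, 1.94 and 1.95 at P4 and 7.99, 6.52 and 6.42 at P10 and rose 3.58-fold. Ucp3, a relative of UCP1 tied to fatty acid oxidation, rose 1.84-fold. The subunits of the respiratory chain differed little. For complex I 12 of 35 measured members rose and 1 fell (0 and 0 with like arrays averaged), with a median log2 difference of 0.11, but quantile scaling gave 31 rises and median scaling 0. For complexes II and III together 4 of 14 measured members rose and 0 fell (0 and 0 with like arrays averaged), with a median log2 difference of 0.10, for cytochrome oxidase 3 of 22 rose and 3 fell (1 of 19 and 3 without the 3 members shared with the muscle lists), and for ATP synthase 1 of 17 rose and 2 fell, while quantile scaling gave 11, 10 and 10 rises.

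Atp5g1, a gene for subunit c of ATP synthase, read 56.0, 55.2, 47.5 and 53.7 at P4 and 21.4, 19.4 and 19.4 at P10 and fell 2.65-fold. Atpif1, the protein inhibitor of that enzyme, fell 1.64-fold. Near-identical subunit c genes exist, so the reading of Atp5g1 is uncertain as to copy. Of 49 mitochondrial ribosome genes 4 rose and 22 fell, with none called either way once like arrays were averaged, and a median of -0.11, which became 0.011 with quantile scaling. Of the tricarboxylic acid cycle genes 6 of 19 measured members rose and 0 fell (1 and 0 with like arrays averaged), with a median log2 difference of 0.13, and Suclg1, a subunit of succinyl-CoA ligase, read 116, 117, 129 and 115 at P4 and 227, 192 and 192 at P10.

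Of genes of glucose uptake and glycolysis 14 of 31 measured members rose and 4 fell (4 and 2 with like arrays averaged), with a median log2 difference of 0.10. Without the 4 members that the muscle lists also hold, 10 of 27 rose and 4 fell, with a median of 0.02. Pfkfb3, which makes an activator of glycolysis, read 64.0, 60.2, 62.7 and 60.9 at P4 and 25.3, 22.7 and 23.9 at P10 and fell 2.59-fold. Slc2a1, the insulin-independent glucose transporter, fell 1.87-fold. In the list of creatine and other heat cycles 10 of 14 measured members rose and 3 fell (8 and 2 with like arrays averaged), with a median log2 difference of 0.87, but 4 of its members also belong to the muscle lists, and without them 6 of 10 rose and 3 fell, with a median of 0.50. Ckb, the brain-type creatine kinase of brown fat, read 1.85, 1.74, 1.91 and 1.74 at P4 and 4.60, 4.24 and 4.19 at P10 and rose 2.40-fold, whereas Gatm and Gamt, the enzymes that make creatine, fell 1.70-fold and 1.63-fold.

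Genes of cholesterol synthesis mostly fell: 3 of 21 measured members rose and 14 fell (1 and 9 with like arrays averaged), with a median log2 difference of -0.54. Sqle, squalene epoxidase, read 3.39, 3.38, 4.54 and 3.52 at P4 and 0.980, 1.07 and 1.11 at P10 and fell 3.50-fold. Cyp51, whose promoter is shown above, read 0.452, 0.370, 0.390 and 0.384 at P4 and 0.160, 0.161 and 0.168 at P10. Hsd17b7 read 0.820, 0.840, 0.794 and 0.773 at P4 and 0.255, 0.327 and 0.346 at P10. Idi1, which makes the active form of the isoprene unit, read 3.90, 3.69, 3.70 and 3.73 at P4 and 2.15, 1.98 and 2.09 at P10. These were falls of 2.45-fold, 2.63-fold and 1.81-fold. Fdft1, squalene synthase, read 2.16, 2.07, 1.84 and 2.04 at P4 and 4.04, 3.80 and 3.80 at P10 and rose 1.92-fold, and its ages did not overlap either.

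Genes of growth and division mostly fell. Of DNA replication genes 1 of 42 measured members rose and 37 fell (1 and 28 with like arrays averaged), with a median log2 difference of -0.91. Of mitosis genes 2 of 55 measured members rose and 45 fell (1 and 32 with like arrays averaged), with a median log2 difference of -0.86. Uhrf1, which passes DNA methylation to daughter strands, read 7.32, 7.42, 8.13 and 7.54 at P4 and 2.72, 2.69 and 2.60 at P10 and fell 2.84-fold. Cdca3, a trigger of mitotic entry, fell 3.74-fold, a call lost within slide 2 (adjusted p = 0.1 in limma's fit). Cenpa, the centromere histone, was an exception within the mitosis list, at 3.19, 3.02, 2.94 and 2.98 at P4 and 4.93, 4.52 and 4.53 at P10, a rise of 1.53-fold. The E2F motif GGCGGGAA (TTCCCGCC on the other strand) stood in 5 of 34 DNA replication promoters (14.7%) against 3.42% of those of measured genes, and TTTGAA on either strand, the cell cycle homology region, in 17 of 45 mitosis promoters (37.8%) against 13.8%.

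Genes that restrain the cycle were divided: 13 of 24 measured members rose and 8 fell (7 and 4 with like arrays averaged), with a median log2 difference of 0.36, or 0.21 under normexp background correction. Trp53inp1, a p53 target, read 0.308, 0.294, 0.235 and 0.292 at P4 and 1.36, 1.41 and 1.41 at P10 and rose 4.96-fold. Gadd45a rose 2.05-fold. Sesn2, a stress-induced brake on growth signalling, read 13.6, 12.6, 13.0 and 12.5 at P4 and 3.26, 4.84 and 4.79 at P10 and fell 3.06-fold. Cdkn1a, the p21 inhibitor, read 14.4, 14.1, 14.6 and 13.7 at P4 and 5.12, 5.09 and 5.04 at P10 on its brightest probe; averaged over its probes the log2 difference was -0.39 with an adjusted p of 0.067 in limma's fit, so its probes disagree.

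Genes that make ribosomes fell as well. All 28 ribosome biogenesis genes outside the X and Y chromosomes fell, 15 of them at least 2-fold, with a median of -1.01 (22 with like arrays averaged), and all 63 measured cytosolic ribosomal protein genes fell, with a median of -0.59 (19 with like arrays averaged). Ddx21, a helicase of ribosomal RNA processing, read 5.24, 5.38, 5.30 and 5.31 at P4 and 1.38, 1.30 and 1.38 at P10. Nop58, a core protein of the particles that methylate ribosomal RNA, read 12.5, 12.5, 12.2 and 13.2 at P4 and 3.58, 3.59 and 3.29 at P10. Rrp1b read 1.17, 1.099, 1.11 and 1.04 at P4 and 0.359, 0.372 and 0.371 at P10. Their falls were 3.93-fold, 3.62-fold and 3.00-fold. Ribosomal protein genes fell less, such as Rpl12 (194, 202, 218 and 196 at P4 and 117, 112 and 116 at P10, 1.76-fold), and many have processed copies that a probe may read. With quantile scaling 57 of the 63 fell, with a median of -0.32.

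Imprinted growth genes mostly fell: 2 of 27 measured members rose and 19 fell (0 and 14 with like arrays averaged), with a median log2 difference of -0.89, or -0.58 under normexp background correction. Nnat, neuronatin, an imprinted membrane proteolipid, read 42.2, 41.6, 42.0 and 41.6 at P4 and 2.80, 3.27 and 3.31 at P10. It fell 13.4-fold, the log2 difference being -3.75 ± 0.06, and the 4 P4 arrays spanned only 41.6 to 42.2. Zim1, a zinc finger gene expressed from the mother's copy, read 1.76, 1.67, 1.77 and 1.78 at P4 and 0.203, 0.164 and 0.158 at P10 and fell 10.0-fold. In the insulin and IGF list 10 of 33 measured members rose and 13 fell (3 and 8 with like arrays averaged), with a median log2 difference of -0.10. Igf1, insulin-like growth factor 1, read 4.59, 4.13, 4.11 and 4.26 at P4 and 1.86, 1.72 and 1.71 at P10 and fell 2.43-fold. Prlr, the prolactin receptor, read 2.67, 2.49, 2.63 and 2.51 at P4 and 0.870, 0.823 and 0.821 at P10 and fell 3.07-fold. Irs3, an insulin receptor substrate of rodent fat, read 1.66, 1.59, 1.71 and 1.63 at P4 and 4.34, 4.32 and 4.45 at P10 and rose 2.66-fold.

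Stress genes that follow amino acid supply mostly fell: in the integrated stress list 4 of 32 measured members rose and 21 fell (2 and 11 with like arrays averaged), with a median log2 difference of -0.42. Ddit4, an inhibitor of mTORC1, read 94.8, 90.1, 97.2 and 89.0 at P4 and 23.98, 20.8 and 20.7 at P10. Slc3a2, the heavy chain of amino acid transporters, read 29.6, 29.5, 33.9 and 28.5 at P4 and 7.80, 7.89 and 7.69 at P10. Mthfd2, a mitochondrial folate enzyme, read 0.769, 0.757, 0.645 and 0.770 at P4 and 0.2505, 0.223 and 0.215 at P10. They fell 4.26-fold, 3.89-fold and 3.20-fold. Chac1, also a target of this response, read 0.109, 0.114, 0.118 and 0.124 at P4 and 0.356, 0.315 and 0.312 at P10 and rose 2.82-fold. Chaperones of the endoplasmic reticulum moved less. Of them 6 of 25 measured members rose and 15 fell (2 and 2 with like arrays averaged), with a median log2 difference of -0.34, and Hspa5, the chaperone BiP, fell 1.59-fold. Mt2, a metallothionein with a near-identical relative, read 39.5, 36.2, 43.3 and 37.1 at P4 and 8.01, 6.52 and 6.63 at P10 and fell 5.54-fold. TTGCATCA, the amino acid response element (TGATGCAA on the other strand), stood in 4 of 27 promoters of the stress list (14.8%) and in 0.918% of all promoters of the table.

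Genes of the extracellular matrix mostly fell in 3 of the 5 matrix lists. Of collagen genes and their processing enzymes 2 of 31 measured members rose and 23 fell (0 and 13 with like arrays averaged), with a median log2 difference of -0.54. Of elastic fibre genes 3 of 19 measured members rose and 14 fell (1 and 9 with like arrays averaged), with a median log2 difference of -0.60. Of proteoglycans and matricellular proteins 4 of 28 measured members rose and 17 fell (2 and 14 with like arrays averaged), with a median log2 difference of -0.59. Of basement membrane genes, by contrast, 8 of 19 measured members rose and 4 fell (3 and 0 with like arrays averaged), with a median log2 difference of 0.01. Of matrix proteases and their inhibitors 9 of 29 measured members rose and 11 fell (4 and 3 with like arrays averaged), with a median log2 difference of -0.09. Thbs1, thrombospondin 1, read 1.496, 1.42, 1.54 and 1.502 at P4 and 0.363, 0.302 and 0.303 at P10 and fell 4.64-fold. Col6a1, a collagen VI chain, read 68.3, 50.9, 68.6 and 66.1 at P4 and 28.2, 27.3 and 27.5 at P10 and fell 2.28-fold, and Plod2, which readies collagen for cross-linking, fell 2.40-fold. Has2, a hyaluronan synthase, was well above background on no P10 array and at least 3.40-fold lower. Mgp, which keeps matrix from calcifying, read 5.54, 5.16, 5.06 and 5.27 at P4 and 19.2, 17.8 and 17.0 at P10 and rose 3.42-fold. The matrix protease Mmp11 rose 5.14-fold. Ltbp4, which stores TGFβ on elastic fibres, rose 2.14-fold.

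Endothelial transcripts were higher at P10: 31 of 41 measured members rose and 1 fell (17 and 0 with like arrays averaged), with a median log2 difference of 0.61. The summed level of the list was 612 to 668 on the P4 arrays and 875 to 969.7 on the P10 arrays. Aplnr, the apelin receptor of sprouting vessels, read 0.853, 0.917, 1.19 and 0.894 at P4 and 9.04, 6.57 and 6.91 at P10 and rose 7.77-fold. Its means at 4W and 8W were 1.64 and 1.58, and the part of sex in these values was not tested. The general markers moved less: Pecam1 read 1.45, 1.66, 1.73 and 1.68 at P4 and 2.27, 2.27 and 2.27 at P10 and Kdr, the VEGF receptor, 21.0, 20.3, 18.6 and 20.4 at P4 and 32.9, 25.7 and 25.4 at P10, and neither call held with like arrays averaged (adjusted p = 0.074 and 0.1 in limma's fit). Plvap, the diaphragm protein of fenestrated capillaries, read 2.38, 2.39, 2.21 and 2.41 at P4 and 1.58, 1.64 and 1.57 at P10 and was the 1 member that fell, a call lost within slide 2 (adjusted p = 0.069 in limma's fit) and with like arrays averaged (0.055).

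Mural cell genes divided: in the list of pericytes and vascular smooth muscle 10 of 21 measured members rose and 9 fell (5 and 5 with like arrays averaged), with a median log2 difference of 0.15, or 0.06 under normexp background correction. Rgs5, a pericyte marker, read 5.37, 5.03, 5.29 and 5.14 at P4 and 14.8, 14.4 and 14.6 at P10 and rose 2.80-fold. Of contractile smooth muscle genes, Cnn1 (calponin) read 5.89, 5.39, 6.40 and 5.65 at P4 and 1.14, 1.05 and 1.07 at P10, a 5.34-fold fall, and Acta2 (smooth muscle actin) fell 1.93-fold. Angiogenic factors also divided: 10 of 20 measured members rose and 6 fell, with a median log2 difference of 0.18. The hypoxia factor Epas1 read 59.4, 62.4, 70.6 and 65.5 at P4 and 139.9, 138 and 142 at P10 and rose 2.18-fold. Efnb2, the arterial ephrin, rose 2.45-fold. These are rises of the brightest probe. Averaged over its probes, the log2 difference of Epas1 was 0.67 against 1.12, and that of Efnb2 0.75 against 1.29. Angpt2, which loosens vessels, read 1.04, 0.963, 1.22 and 1.03 at P4 and 0.527, 0.501 and 0.4997 at P10 and fell 2.08-fold.

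Nearly every measured gene of the interferon response rose. Here 43 of 46 measured members rose and 0 fell (34 and 0 with like arrays averaged), with a median log2 difference of 1.19, and 28 members rose at least 2-fold; the median lay between 1.05 and 1.25 over all alternatives. Irf7, the master transcription factor of type I interferon genes, read 0.142, 0.141, 0.172 and 0.152 at P4 and 0.600, 0.474 and 0.476 at P10. Gbp3, a guanylate-binding protein, read 1.73, 1.46, 1.53 and 1.52 at P4 and 6.08, 5.55 and 5.59 at P10. Both were low on every P4 array and higher on every P10 array. Of the genes whose promoters are shown above, Isg15, the ubiquitin-like interferon protein, read 6.17, 5.48, 5.05 and 5.60 at P4 and 12.8, 11.9 and 12.0 at P10. Irgm1, an immunity GTPase, read 1.46, 1.38, 1.38 and 1.38 at P4 and 3.51, 3.68 and 3.50 at P10. They rose 3.39-fold, 3.69-fold, 2.20-fold and 2.54-fold, and none of their P10 arrays lay within the range of P4. Igtp, another such GTPase, rose 2.37-fold, and Ifit1, which binds viral RNA, 3.59-fold, a call lost within slide 2 (adjusted p = 0.1 in limma's fit). The GBP, IRGM and IFIT families hold near-identical copies that 1 probe may read together.

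Upstream of these genes, among interferons, their receptors and signal chain, 19 of 27 measured members rose and 1 fell (12 and 0 with like arrays averaged), with a median log2 difference of 0.57. Ifih1, a sensor of double-stranded RNA, read 0.646, 0.627, 0.570 and 0.627 at P4 and 1.54, 1.39 and 1.40 at P10. Mavs, the adaptor it signals through, read 5.45, 5.88, 5.15 and 5.65 at P4 and 13.1, 13.4 and 13.8 at P10; they rose 2.34-fold and 2.43-fold. Averaged over its probes, the log2 difference of Ifih1 was 0.78, against 1.23 on its brightest probe. Tlr3, another RNA sensor, was well above background on no P4 array and at least 1.70-fold higher. Ifng, interferon γ of lymphocytes, read 0.013, 0.0392, 0.0195 and 0.0124 at P4 and 0.104, 0.0575 and 0.0542 at P10 with 1 of 4 P4 arrays well above background, and its call was lost under normexp background correction (adjusted p = 0.2 in limma's fit) and within each slide (0.094 and 0.058).

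Genes of antigen presentation rose too. For MHC class I and peptide loading 17 of 19 measured members rose and 1 fell (13 and 0 with like arrays averaged), with a median log2 difference of 0.78. B2m, the light chain of every class I molecule, read 27.7, 27.9, 27.5 and 28.4 at P4 and 45.1, 47.0 and 47.0 at P10. Psmb8, a subunit of the immunoproteasome, read 2.25, 2.17, 1.59 and 2.05 at P4 and 5.39, 5.54 and 5.47 at P10. The class I gene H2-T23, one of a family of close copies, rose 2.45-fold. For MHC class II 10 of 12 measured members rose and 0 fell (8 and 0 with like arrays averaged), with a median log2 difference of 1.36, and the median was 0.69 with normexp background correction. H2-Ab1, a class II β chain, read 3.48, 3.26, 3.84 and 3.52 at P4 and 12.7, 11.3 and 11.2 at P10 and rose 3.32-fold.

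Markers of the immune cells themselves gave unlike directions. Of lymphocyte markers 21 of 31 measured members rose and 1 fell (17 and 0 with like arrays averaged), with a median log2 difference of 1.23; with the 5 members below background at P4 set to their bounds the median was 0.84, and with normexp background correction it was 0.52. Ms4a1, the B cell protein CD20, read 0.235, 0.281, 0.267 and 0.240 at P4 and 1.31, 1.24 and 1.15 at P10. Cd2, a T and NK cell adhesion protein, read 0.233, 0.193, 0.210 and 0.199 at P4 and 1.11, 0.920 and 0.840 at P10. They rose 4.82-fold and 4.57-fold, and within slide 2 alone the first kept a log2 difference of 2.47 but not its call (adjusted p = 0.099 in limma's fit). Cd3e, a chain of the T cell receptor complex, read 2.36, 2.85, 2.54 and 2.59 at P4 and 2.16, 2.85 and 2.82 at P10, and Cd4, the coreceptor of helper T cells, read 4.74, 6.26, 4.72 and 5.32 at P4 and 4.48, 6.40 and 6.56 at P10. Neither passed the test (adjusted p = 0.97 and 0.45 in limma's fit), and both overlapped between the ages. The defining genes Cd8a and Pax5 were well above background on none of the 4 P4 arrays and on 1 and 2 of the 3 P10 arrays. Klrb1c, the NK cell receptor NK1.1, was at least 2.21-fold higher. The summed level of the list was 24.7 to 27.3 at P4 and 42.8 to 44.8 at P10. The part of lymphocytes in the interferon and MHC rises was not tested. Of dendritic cell markers 9 of 14 measured members rose and 2 fell (6 and 0 with like arrays averaged), with a median log2 difference of 0.56, or 0.27 under normexp background correction and 0.99 within slide 2. Their summed levels were 243 to 363 at P4 and 245 to 277 at P10; Itgax (CD11c) read 0.0853, 0.0901, 0.110 and 0.133 at P4 and 0.363, 0.297 and 0.303 at P10.

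Macrophage markers fell more often than they rose. Of them 4 of 25 measured members rose and 13 fell (1 and 3 with like arrays averaged), with a median log2 difference of -0.23. Pf4, a chemokine of platelets and resident macrophages, read 23.3, 21.96, 24.6 and 23.2 at P4 and 10.1, 8.98 and 8.74 at P10 and fell 2.52-fold. Lyve1, of perivascular macrophages and lymph vessels, read 0.944, 0.951, 1.02 and 0.950 at P4 and 0.377, 0.366 and 0.327 at P10. Mrc1, the mannose receptor CD206, read 2.94, 2.80, 2.71 and 2.80 at P4 and 1.47, 1.43 and 1.43 at P10. Their arrays did not overlap. Lyz2, lysozyme, rose by 0.74 ± 0.12 and Mertk, a receptor for dead cells, by 0.46 ± 0.08, and neither call held with like arrays averaged (adjusted p = 0.079 and 0.11 in limma's fit). Of markers of other cells the tissue could hold, 2 of 17 neutrophil genes rose and 2 fell, 7 of 23 Schwann cell and nerve genes rose and 5 fell, and 2 of 14 white adipocyte genes rose and 7 fell.

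**Figure D3:**
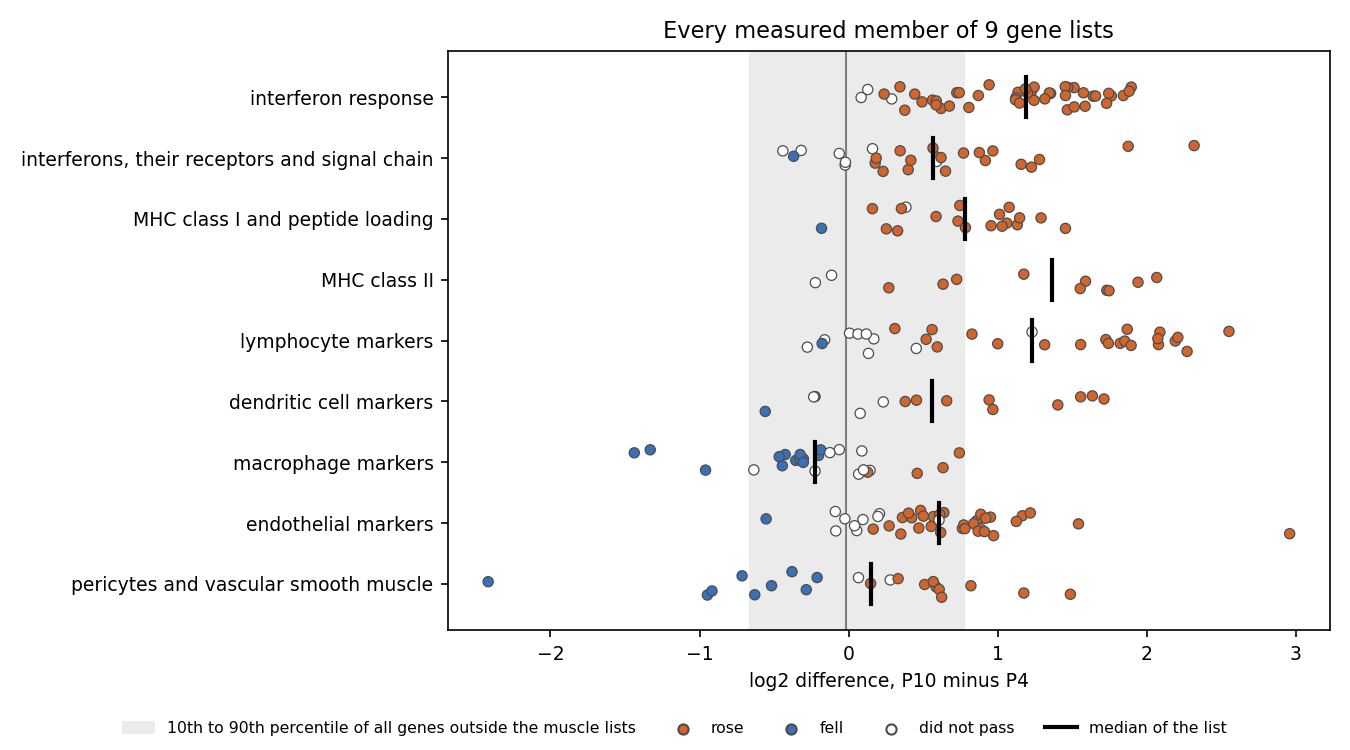
Log2 difference, P10 minus P4, of every measured member of 9 immune and vessel lists, filled by call, with a bar at each list's median and shading from the 10th to the 90th percentile of all genes outside the muscle lists (-0.66 to 0.77). The medians of the interferon response (1.19) and MHC class II (1.36) lie right of the shading and that of macrophage markers (-0.23) left of 0.

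Of 46 lists, 41 had medians of the same sign within each slide. The 5 that did not had medians near 0 over all arrays: thyroid hormone genes (0.05 within slide 1 and -0.08 within slide 2), insulin and IGF signalling (-0.09 and 0.03), ATP synthase (-0.07 and 0.06), basement membrane (-0.02 and 0.06) and matrix proteases (-0.11 and 0.0054). For the interferon response the median was 1.19 within slide 1 and 1.21 within slide 2, for MHC class II 1.26 and 1.44, for endothelial markers 0.56 and 0.65, for DNA replication -0.95 and -0.84, for ribosome biogenesis -1.02 and -0.89, and for cholesterol synthesis -0.56 and -0.63. For cytosolic ribosomal proteins it was -0.64 and -0.44. Slide 2 holds 1 array of each age, so the spread there comes from 4W and 8W.

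Iron and haem genes moved both ways: 11 of 25 measured members rose and 7 fell (5 and 0 with like arrays averaged), with a median log2 difference of 0.08. Tfrc, the transferrin receptor that brings iron into cells, read 8.25, 7.49, 7.33 and 7.58 at P4 and 67.2, 62.7 and 62.4 at P10. It rose 8.36-fold (log2 difference 3.06 ± 0.05), and its means at 4W and 8W were 5.201 and 10.97. Slc40a1, ferroportin, the iron exporter, read 1.65, 1.43, 1.69 and 1.53 at P4 and 5.39, 5.44 and 5.32 at P10 and rose 3.43-fold. Alas1, the first enzyme of haem synthesis, read 122, 116, 141 and 111 at P4 and 269.9, 256 and 250.1 at P10 and rose 2.11-fold. Averaged over its probes, the log2 difference of Alas1 was 0.62, against 1.08 on its brightest probe. Hbb-bt, an adult β-globin gene and a marker of blood, fell 1.73-fold.

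Clock genes moved in both directions: 10 of 21 measured members rose and 6 fell (9 and 2 with like arrays averaged), with a median log2 difference of 0.23. Nr1d1, the repressor REV-ERBα, read 0.205, 0.190, 0.159 and 0.187 at P4 and 0.659, 0.670 and 0.585 at P10 and Per3 read 0.159, 0.155, 0.158 and 0.152 at P4 and 0.415, 0.528 and 0.525 at P10; they rose 3.45-fold and 3.12-fold. Arntl (BMAL1), which Nr1d1 represses, read 1.63, 1.49, 1.60 and 1.54 at P4 and 0.923, 0.865 and 0.850 at P10 and Nfil3 read 8.46, 7.97, 8.13 and 7.46 at P4 and 5.03, 4.19 and 4.06 at P10; both fell. Per2 spread widely among P4 arrays, 1.097, 0.695, 0.439 and 0.513 at P4 and 0.209, 0.260 and 0.227 at P10, and was not called with like arrays averaged (adjusted p = 0.053 in limma's fit). The labels give no time of day for the samples used here, and its part in these values was not tested.

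Among the 15 largest rises outside the muscle lists were those of Slco4a1, Tuba8, Aspg, Retnla and Ptgds. Slco4a1, an organic anion and thyroid hormone transporter, read 0.123, 0.108, 0.114 and 0.119 at P4 and 3.20, 2.42 and 2.54 at P10 and rose 23.3-fold, but its mean was also over 2-fold higher at 4W (5.54) than at 8W (1.69), as muscle transcripts were. Tuba8, a tubulin, read 1.05, 0.881, 1.17 and 0.939 at P4 and 20.8, 17.5 and 17.5 at P10 and rose 18.5-fold. Aspg, an asparaginase, read 0.649, 0.643, 0.698 and 0.639 at P4 and 13.4, 9.84 and 10.2 at P10 and rose 16.8-fold. Retnla, a small secreted protein of fat and alternatively activated macrophages, read 0.488, 0.422, 0.403 and 0.474 at P4 and 7.01, 6.20 and 6.20 at P10 and rose 14.5-fold. Ptgds, which makes prostaglandin D, rose 10.99-fold. Apol10b, Acox2, Ampd3, Clec18a and Ifnlr1 were well above background on no P4 array and on every P10 array, and were at least 4.87-fold, 3.52-fold, 5.24-fold, 4.70-fold and 4.27-fold higher.

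Among the 15 largest falls, Chst8, a sulfotransferase, read 1.03, 0.980, 1.09 and 0.975 at P4 and 0.109, 0.0721 and 0.0719 at P10 and fell 12.3-fold. Fhl2, a LIM-domain cofactor, read 2.47, 2.36, 2.27 and 2.47 at P4 and 0.424, 0.374 and 0.349 at P10 and fell 6.28-fold. Syt13, of the synaptotagmin family, read 0.303, 0.308, 0.337 and 0.292 at P4 and 0.0328, 0.0388 and 0.0426 at P10, with 1 of 3 P10 arrays well above background; its log2 difference was -3.03 ± 0.19, and -1.52 under normexp background correction. Nrg2, a neuregulin, was at least 7.64-fold lower. Of secreted factors of fat, Rbp4, the retinol carrier, read 23.9, 23.1, 25.1 and 23.4 at P4 and 7.73, 7.06 and 7.60 at P10 and fell 3.20-fold. Inhbb, an activin subunit, fell 3.83-fold. Bmp6 read 0.253, 0.252, 0.277 and 0.271 at P4 and 0.717, 0.755 and 0.731 at P10 and rose 2.79-fold. Id2, an inhibitor of helix-loop-helix factors, read 2.22, 2.09, 2.28 and 2.22 at P4 and 9.24, 8.71 and 8.81 at P10 and rose 4.05-fold.

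Skeletal muscle transcripts were much higher at P10. Of the 139 genes of the 4 muscle lists, 109 rose and 7 fell, and in the contractile list 52 of 63 measured members rose and 4 fell (47 and 1 with like arrays averaged), with a median log2 difference of 1.87. With the members below background at P4 set to their bounds that median was 1.43, and under normexp background correction it was 0.95. The contractile list summed to 160.1 to 172 on the P4 arrays and 371 to 410 on the P10 arrays. Acta1, skeletal α-actin, read 1.41, 1.37, 1.37 and 1.38 at P4 and 21.8, 19.4 and 19.4 at P10. Ckm, muscle creatine kinase, read 0.0811, 0.0919, 0.106 and 0.07 at P4 and 2.11, 1.77 and 1.70 at P10. Their rises were 14.6-fold and 21.5-fold. Their means were 29.5 and 2.62 at E18, above every P10 array, and 0.408 and 0.0224 at 8W. Myh8, the perinatal myosin heavy chain, read 1.78, 1.67, 1.81 and 1.57 at P4 and 39.8, 35.2 and 35.9 at P10. Myh7, the slow one, read 0.140, 0.196, 0.221 and 0.215 at P4 and 6.24, 6.41 and 6.24 at P10; these genes are close relatives and their probes may share signal. Cox6a2, the muscle form of a cytochrome oxidase subunit, read 0.748, 0.744, 0.801 and 0.732 at P4 and 8.73, 7.92 and 7.76 at P10 and rose 10.7-fold. Actc1, the cardiac actin of early muscle, read 0.273, 0.203, 0.223 and 0.254 at P4 and 0.612, 0.570 and 0.556 at P10 and rose 2.45-fold, against a mean of 26.5 at E18. At E18 the means of Myh8, Myh7 and Cox6a2 were 36.6, 7.61 and 9.41, so these too were lower at P4 than at either E18 or P10. Ryr1, the calcium channel of the muscle reticulum, was at least 6.63-fold higher. The heart list, by contrast, held 0 rises and 1 fall among 8 genes.

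**Figure D4:**
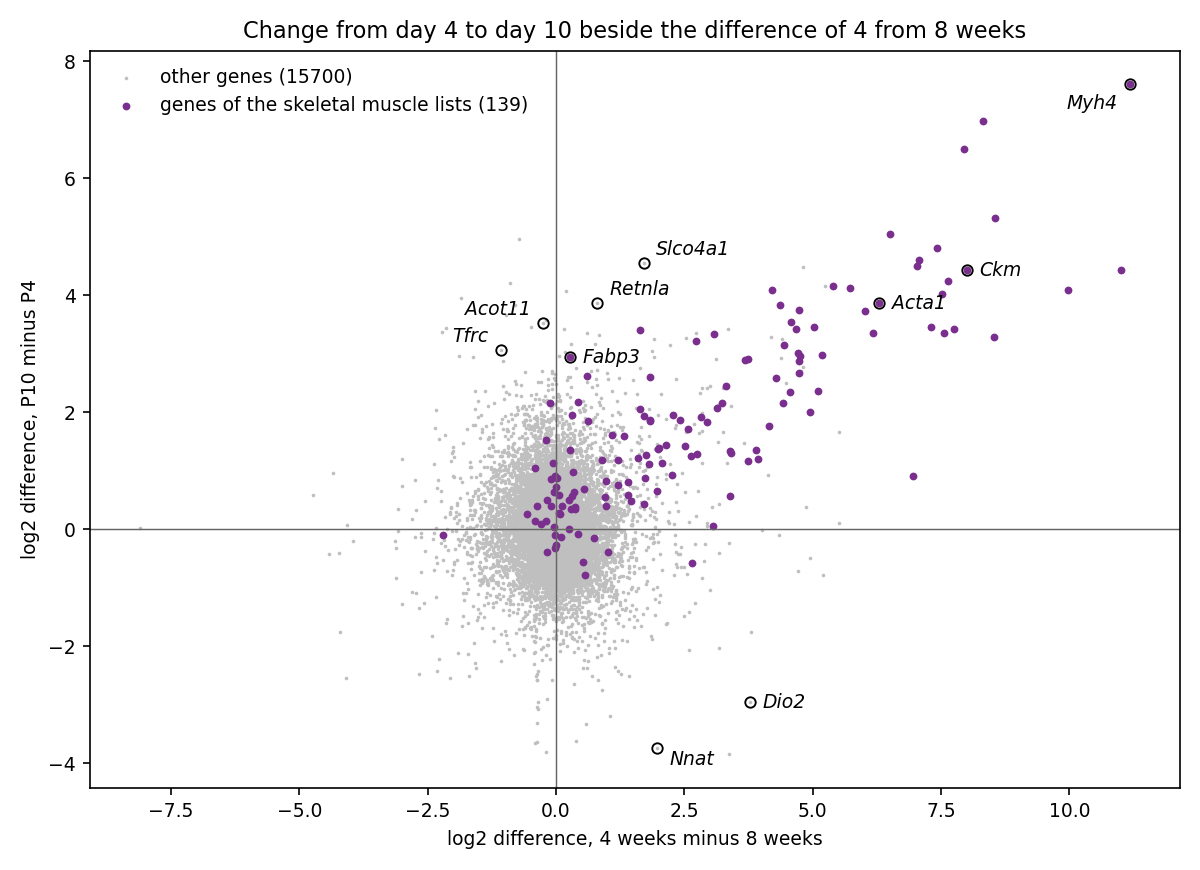
Log2 difference of P10 from P4 (vertical) against that of 4W from 8W (horizontal) for 139 genes of the skeletal muscle lists and 15700 other genes. Most muscle genes lie at the upper right, high at both P10 and 4W, while Fabp3, Acot11, Retnla and Tfrc are high on the vertical axis only.

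Muscle transcripts also stood higher at 4W than at 8W, with a median log2 difference of 1.97 over the 139 genes, and 83 of them both rose at P10 and were at least 2-fold higher at 4W. Among the 969 genes outside the muscle lists that rose at least 2-fold at P10, 100 were at least 2-fold higher at 4W than at 8W and 869 were not; over all 15700 genes 553 were (3.52%). Of the 15 largest rises outside the muscle lists, 4 were and 11 were not. The part of muscle RNA in the rises of those 100 genes was not tested.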

How the data were processed

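Each array is an Agilent 1-colour slide of 62976 spots designed on mm9. The deposited intensity values are the processed signals of Agilent Feature Extraction, background-subtracted, version 11.5.1.1 per the file headers and 11.0.1.1 per the submitters' processing notes. The authors also deposited a table of log2 values, which was found to be quantile-normalised (sorting each column gives identical values, a difference of 0, and spots kept their order in the processed signal to within 1 rank); it served as an alternative, and its column titles picked the arrays.

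The 3671 control spots were left out, 2720 values marked non-uniform or outlying were set to missing, and spots of 1 probe were averaged, giving 55681 probes. Of these 27656 carry 1 of 20972 gene symbols and 28025 carry none and were not named. Signals were scaled to each array's 75th percentile and taken to log2, and probes well above background on at least 3 arrays were kept, the brightest for each gene. Of 4049 genes with several kept probes, 100 have a probe that rose and another that fell. Age effects were fitted with limma 3.58.1 in R 4.3.3 over all 16 arrays without covariates, and p-values were adjusted over 16436 genes at 0.05. On simulated data with 50 changed genes of each log2 size, the fit called 13 for size 0.25, 26 for 0.5, 44 for 1 and 48 for 2, and 5 of 16236 unchanged genes. The simulated arrays varied independently, without slide effects, and a far smaller share of genes changed than the 54.2% called here. These counts therefore do not measure the errors of the real comparison.

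The comparison and its 74 gene lists were chosen with earlier results of these data known. Genes named were a fixed set of brown fat genes, up to 4 members of each list in each direction with the largest change and no overlap between arrays, and the 15 largest rises and falls outside the muscle lists, with the exceptions stated in the text. Some genes this rule names are not reported here. Promoters came from a RefSeq table of 27025 genes, which 12540 measured genes matched. Replicate numbers are shared by both ages, and same-numbered arrays deviated together (r = 0.39, 0.22 and 0.13), but arrays with number 1 also share a slide, and the differently numbered arrays 2 and 3 of the other slide deviated together as much (r = 0.19 and 0.16). With the replicate number as a block, 3897 genes rose and 4124 fell. Array number limits the precision. Tried alternatives changed the scaling, background, filter, probes, slide, prior, weights and arrays. Averaging like arrays and leaving out genes at least 2-fold higher at 4W than at 8W, as muscle genes were, were chosen after seeing the data. The latter dropped falls as well as rises, and left 3979 rises and 4202 falls.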

Additional observations from a re-analysis of the deposited data

Results flagged for a closer look

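In 13 of 150 named genes, 1 of the 4 P4 arrays stood apart from the other 3. Its gap over the range of the 4 arrays, both taken on log2 levels, passed Dixon's critical value. Chance gives about 1 in 20. P4 replicate 3, the array with the lowest 75th percentile of signal, was above the others for Angptl8 (12.2 against 9.90 to 10.1, gap over range 0.914), Fabp3 (26.6 against 22.3 to 22.8, gap over range 0.859), H2-T23 (8.44 against 6.73 to 6.95, gap over range 0.862), Lyve1 (1.02 against 0.944 to 0.951, gap over range 0.902), Sqle (4.54 against 3.38 to 3.52, gap over range 0.861), Suclg1 (129 against 115 to 117, gap over range 0.832) and Ucp3 (3.50 against 3.21 to 3.23, gap over range 0.947). It was below them for Mthfd2 (0.645 against 0.757 to 0.770, gap over range 0.9002) and Plvap (2.21 against 2.38 to 2.41, gap over range 0.880). Replicate 1 was above for Irgm1 (1.46 against 1.38 in all 3, gap over range 0.955). Replicate 2 was below for Col6a1 (50.9 against 66.1 to 68.6, gap over range 0.875), Nr4a3 (0.103 against 0.115 to 0.118, gap over range 0.838) and Zim1 (1.67 against 1.76 to 1.78, gap over range 0.852).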

How the results depend on the processing

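Of 150 named genes 147 passed the threshold. Of these, 132 kept their call and direction under every alternative that could be run for them, 24 or 25 for 27 genes and 26 for the rest, and the other 15 lost it under some, with no change of direction. The alternatives that left out genes following muscle only dropped genes from the same fit, so no gene kept in them could lose its call there. Leaving out X and Y genes first hardly changed the fit, with 4148 rises and 4370 falls. The calls lost under some alternative were those of Adrb3, Cdca3, Cdkn1a, Ifit1, Ifng, Kdr, Lpl, Lyz2, Mertk, Ms4a1, Pecam1, Per2, Plin1, Plvap and Pnpla2. Of those not past it, Cd3e turned from a log2 difference of 0.0061 to -0.038 with normexp background, -0.130 within slide 2 and -0.052 with like arrays averaged, and to between -0.063 and 0.138 when 1 array was left out. Cd4 turned from 0.133 to -0.082 within slide 2, and passed with array weights (0.233) and without P10 replicate 1 (0.311); the causes were not tested. Of genes outside the muscle lists, 4146 rose and 4365 fell. Averaging like arrays left 1607 rises and 1238 falls, with fewer arrays; scaling to the median left 2849 falls and slide 2 alone 2194. Leaving out 1 array at a time gave 3895 to 4217 rises and 3977 to 4505 falls. The replicate block gave 3897 and 4124. Of 46 lists, 8 had a median that turned sign under some alternative: mitochondrial ribosome (-0.11, or 0.011 with quantile scaling), ATP synthase (-0.05, or 0.17 with quantile scaling), thermogenic genes (0.09, or -0.04 with like arrays averaged), thyroid hormone genes (-0.06, or 0.14 without P10 replicate 1), insulin and IGF signalling (-0.10, or 0.03 within slide 2), basement membrane, matrix proteases and immediate early genes. The causes were not tested. Of the 147 genes, 24 had a log2 difference over 1.5 times smaller with normexp background and 38 under at least 1 alternative. Of all 74 lists, between 17 and 24 had a median of at least 0.5 either way, against 22. The range was 20 to 22 when an array was left out. Calls that were higher made up 48.7% of all calls, against 45.0% with normexp background and 56.9% within slide 2. Dim genes are limited by signal over background: 4 P4 arrays read fewer probes well above it than 3 P10 arrays.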
